A study of Homo sapiens with 12 samples.

Results

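The EGF receptor and its ligands were followed in Hs 578T cells through 9 genes: the receptors EGFR and ERBB2, the ligands HBEGF, AREG, EREG, TGFA and NRG1, the feedback inhibitor ERRFI1 and the protease ADAM17. They were taken by symbol from 55242 genes in the tables of counts, after genes named as rRNA had been left out. Hs 578T is a triple-negative breast cancer (TNBC) line of the mesenchymal stem-like subtype. All cells had been transduced with lentivirus, either for GFP, the control, or for full-length NRF2, the transcription factor that drives antioxidant genes, and each library therefore carries a transgene. GFP and NRF2 cells were grown for 8 h in medium with 0.8 mM cystine (Cyss), the oxidised form of cysteine, or in medium without it, and RNA was sequenced from 3 libraries in each of the 4 groups. Whether the libraries of a group came from separate cultures is not given in the sources used here, so p-values measure the spread between these libraries. The study asked what Cyss deprivation does to the transcriptome of these cells and how exogenous NRF2 alters it.

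EGFR is a receptor tyrosine kinase of the cell surface. Its ligands are made as membrane-anchored precursors, and proteases such as ADAM17 cut them free so that they can bind the receptor on the same or a neighbouring cell. HBEGF, AREG, EREG and TGFA bind EGFR, HBEGF also binds ERBB4, whereas NRG1 binds ERBB3 and ERBB4, and ERBB2 has no known ligand of its own and acts as the partner of the other receptors. Ligand binding starts the RAS, RAF, MEK and ERK kinase cascade, among others, and ERRFI1 (also called MIG6) is induced by that signalling and binds the EGFR kinase domain to switch it off. EGFR is often abundant in TNBC.

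Each library held between 27334061 and 44734611 reads on genes. Values below are normalized counts, that is, reads scaled by the TMM method (which corrects for depth and composition) to a common size of all 12 libraries. A gene was tested where its mean normalized count was at least 10 in either group compared. Up- or downregulation means an adjusted p under 0.1 and a log2 fold change (log2FC) above 0.32 in size, from the quasi-likelihood test of edgeR, adjusted over all genes tested by the Benjamini-Hochberg method. Each error behind ± is the SD of 3 libraries, and SE is the standard error of a fitted log2FC. In bulk RNA a change in the cells that express a gene and a change in RNA per cell cannot be told apart.

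The transgene was visible in the counts. NFE2L2, the gene of NRF2, had between 3647 and 4655 normalized counts in the 6 GFP libraries and between 6599 and 8396 in the 6 NRF2 libraries, with no overlap, and reads of the transgene and of the cell's own gene could not be told apart. The labelled cell type was also checked. The 6 mesenchymal markers summed to between 33100 and 36300 RPM (reads scaled to library size) in every library, against 28.3 to 50.7 for 8 epithelial markers, of which EPCAM was at 0 in GFP cells without Cyss and in NRF2 cells with Cyss. The 2 hormone receptor genes ESR1 and PGR summed to at most 1.09 RPM. Markers of immune and endothelial cells summed to at most 1.84, with CD3E at 0 in every library. Of the 3 libraries of GFP cells without Cyss, replicate 3 stood apart: on the first principal component, with 26.9% of the variance, it lay at 3.61, and the other two at -12 and -9.21. That component placed the NRF2 libraries without Cyss at 27.1 to 30.2. By chi-square per degree of freedom between replicates, however, the widest pair was replicates 1 and 3 of the NRF2 cells without Cyss (11.7). In GFP cells without Cyss the widest pair was at 4.96. For the members, results that involve this library are therefore given with and without it, and for the lists of other genes where it changed a count or a call.

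Some promoter sequence is shown first. HBEGF, EGFR and ERRFI1 were all highest in NRF2 cells without Cyss, but only ERRFI1 also rose in GFP cells without it. Whether promoter sequence has a part in this was not tested. Promoters of 300 bases (250 before to 50 after an annotated start) were given by RefSeq on GRCh38.p14 for 8 of the 9 genes, with 2 starts each for EGFR and TGFA. They were searched on both strands for the AP-1 motif in its forms TGACTCA and TGAGTCA, which are each other's reverse complement, for the core of the antioxidant response element bound by NRF2, TGACNNNGC, and for the core of the amino acid response element, TGATGNAA. Among all 35116 promoters of this length, 4.95% held the AP-1 motif, 13.3% the antioxidant core and 3.62% the amino acid core. Matches in these 8 genes were found only in the second EGFR promoter, which belongs to a start inside the gene, and both were AP-1. They are shown with the motif in capitals and 9 bases on either side, on the strand of the gene:

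EGFR, chr7:55109598-55109622: tttcccatgTGAGTCAttgctagtc

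EGFR, chr7:55109694-55109718: ataaactttTGACTCAcaggacaaa

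The motifs begin 232 and 136 bases before that start. The second promoter had a GC content of 42% and 1 CpG site, whereas the first EGFR promoter had 75.3% GC and 33 CpG sites. The promoters of HBEGF (75% GC, 38 CpG sites) and ERRFI1 (74.7% GC, 47 CpG sites) were also rich in CpG and held none of these letters. A match describes letters and not binding, and which EGFR start the reads came from was not tested.

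Levels differed widely between the 9 genes. Per kb of annotated exons, EGFR was the highest in GFP cells with Cyss, at 668 ± 31.5 normalized counts per kb, followed by ERRFI1 at 374 ± 21.9 and ERBB2 at 127 ± 3.31 (SD, n = 3 each). HBEGF (104 ± 11.4), ADAM17 (103 ± 1.79) and NRG1 (93.6 ± 4.02) came next, and the ranges of HBEGF and each of the other two overlapped. In NRF2 cells without Cyss, ERRFI1 stood first with 1040 ± 136 and EGFR second with 982 ± 33.3, a pair whose libraries overlapped, and HBEGF moved ahead of ERBB2 with 217 ± 39.6 against 119 ± 10.4 per kb. These ranks rest on the annotation: with the mean length of the annotated transcripts in place of all exons, EGFR came first and HBEGF last of these 6 genes in every group.

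**Figure D1:**
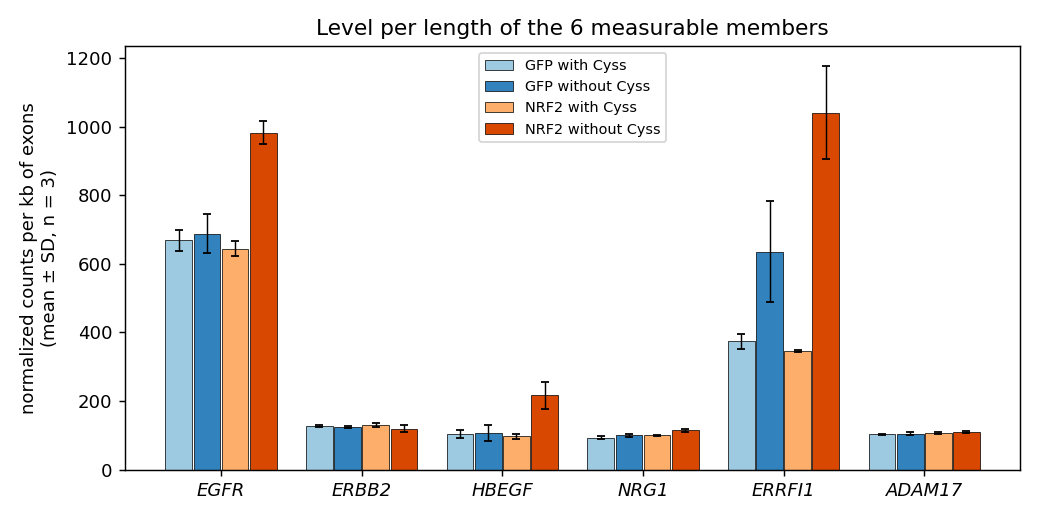
Normalized counts per kb of annotated exons (vertical axis) for the 6 members with reads in every library, as bars for the 4 groups, with error bars for the SD of 3 libraries. EGFR and ERRFI1 stand above the rest in all groups, and in NRF2 cells without Cyss ERRFI1 (1040) and EGFR (982) lie side by side.

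The other EGFR ligands among the members, AREG, EREG and TGFA, had next to no reads. AREG had 0, 0 and 0 reads with Cyss and 0, 1 and 0 without it in GFP cells, and 0, 1 and 1 with Cyss and 1, 1 and 2 without it in NRF2 cells. EREG had between 0 and 3 reads and TGFA 0 or 1 in each library. All were at or under 3 reads, the limit that a count of 0 allows, which is 0.0673 to 0.11 RPM for these libraries, so no fold was computed and none was tested. These limits cover counting error only. For AREG (chromosome 4, 75310853 to 75320722 on GRCh37) the low count is uncertain. The GRCh37 build holds a second copy, AREGB, and 97.6% of the 50-base stretches of AREG's exons also occur there. Reads that map to both places were not assigned to a gene, and AREGB was at 0 in all libraries. EREG (chromosome 4, 75230862 to 75254466) and TGFA (chromosome 2, 70674416 to 70781325) share exons with no other gene.

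Of the 9 members, 6 were tested in each comparison. The members were chosen with earlier results of these data known. The shares of all genes beside their counts are therefore given for scale and are no test of enrichment. In GFP cells, Cyss deprivation upregulated 1 of the 6, ERRFI1, against 1.57% of all genes tested that were upregulated and 0.533% that were downregulated. In NRF2 cells it upregulated 3 of the 6, EGFR, HBEGF and ERRFI1, against 6.81% of all genes upregulated and 5.14% downregulated. With Cyss, 0 of the 6 were called between NRF2 and GFP cells by edgeR, 0 by DESeq2's Wald test, and 1, ERRFI1, had an unadjusted edgeR p under 0.05. Of all genes, 1.36% were upregulated and 0.201% downregulated. Without Cyss, NRF2 cells had 3 of the 6 upregulated, again EGFR, HBEGF and ERRFI1, against 5.98% of all genes upregulated and 4.09% downregulated. No member was downregulated in any comparison. The comparisons share libraries pair by pair, so their values stand side by side and are not independent of each other.

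**Figure D2:**
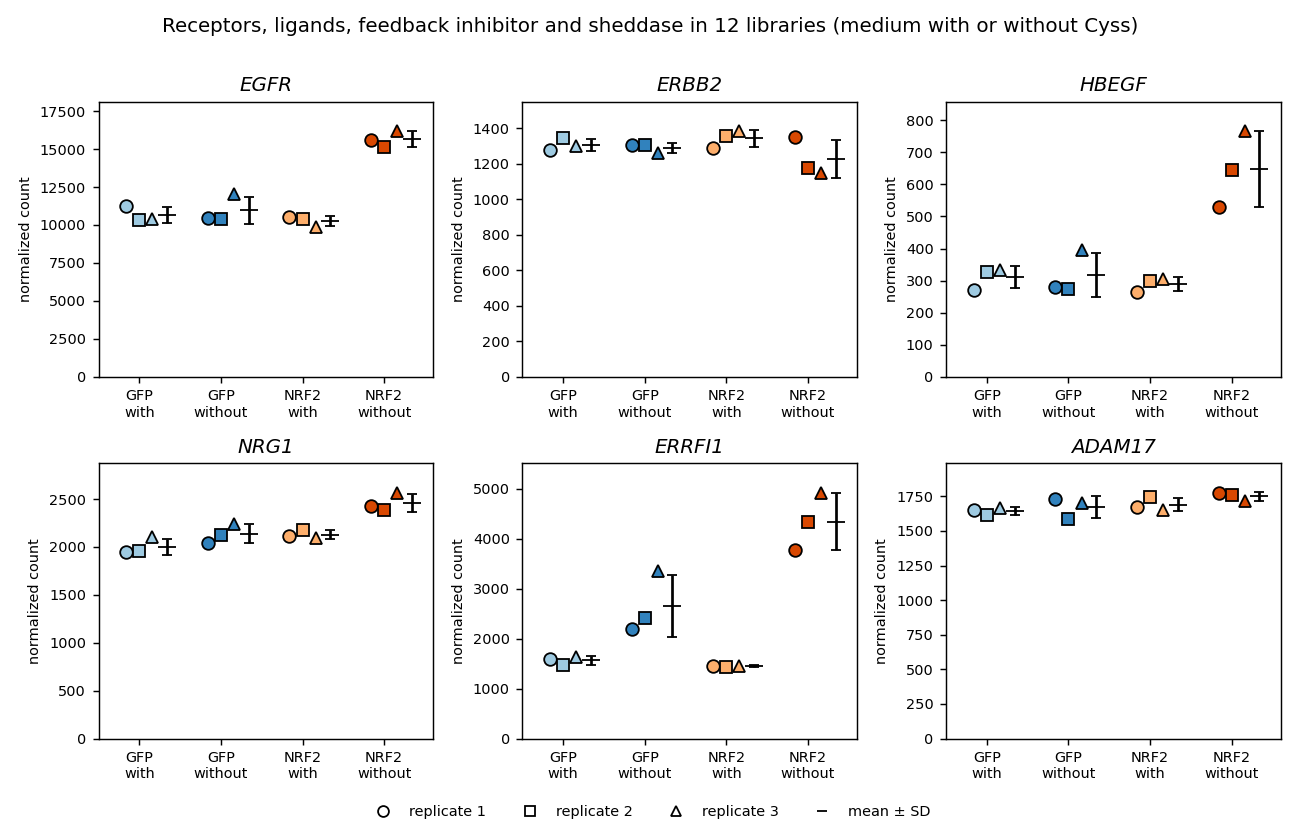
Normalized counts (vertical axes, from 0) of EGFR, ERBB2, HBEGF, NRG1, ERRFI1 and ADAM17 in the 12 libraries by group, with one symbol for each replicate number and the mean ± SD of 3 libraries at the right of each group. EGFR and HBEGF are raised in NRF2 cells without Cyss only, ERRFI1 in both groups without Cyss, and the triangle of GFP cells without Cyss, replicate 3, is the highest of its group for EGFR, HBEGF, NRG1 and ERRFI1.

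EGFR (chromosome 7, 55086710 to 55279321 on GRCh37, plus strand) was abundant in every library. The GFP libraries held 11230, 10331 and 10390 normalized counts with Cyss and 10458, 10406 and 12015 without it, and the NRF2 libraries 10528, 10411 and 9879 with Cyss and 15628, 15125 and 16187 without it. Only the NRF2 libraries without Cyss were raised, and the lowest of them exceeded the highest of the other 9. Libraries were higher with no overlap for 19.3% of all genes over NRF2 cells with Cyss, and for 19.4% over GFP cells without it. In NRF2 cells EGFR rose from 10270 ± 346 to 15650 ± 531 (SD, n = 3 each), and the log2FC was 0.61 (SE 0.0458, edgeR adjusted p = 2.32e-07). In GFP cells the means were 10650 ± 503 and 10960 ± 914, with overlapping libraries and a log2FC of 0.04 (SE 0.0548, edgeR adjusted p = 0.75). Without the library that stood apart, that value was -0.03. Without Cyss, the gap of NRF2 over GFP cells in log2FC was 0.50 (SE 0.059, edgeR adjusted p = 3.7e-04). Leaving out single libraries gave 0.47 to 0.57, the highest when the same library was left out. With Cyss the difference was -0.05 (adjusted p = 0.503). The exons of EGFR overlap those of the antisense gene EGFR-AS1, which the counting without strand cannot separate, but EGFR-AS1 had only 11 to 33 reads of its own in any library.

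HBEGF (chromosome 5, 139712428 to 139726188, minus strand), the heparin-binding ligand, was the only one of the 4 EGFR ligands among the members with enough reads to test. Its normalized counts were 272, 328 and 333 with Cyss and 279, 275 and 396 without it in the GFP libraries. The NRF2 libraries had 266, 298 and 306 with Cyss and 530, 646 and 766 without it. As for EGFR, all NRF2 libraries without Cyss lay above all others, where the shares of all genes are again 19.3% and 19.4%. In NRF2 cells the mean rose from 289.8 ± 21.3 to 647.5 ± 118 (SD, n = 3 each), that is 2.23-fold, with a log2FC of 1.16 (SE 0.114, edgeR adjusted p = 3.49e-06). In GFP cells the means were 310.9 ± 34.1 and 316.5 ± 68.6 and the log2FC was 0.02 (SE 0.126, edgeR adjusted p = 0.953). Its sign rests on single libraries: the value was -0.17 without replicate 3 of the GFP cells without Cyss and -0.06 without replicate 1 of those with Cyss. Without Cyss, the gap of NRF2 over GFP cells was 1.02 in log2FC (SE 0.146, edgeR adjusted p = 8.59e-04). Leaving out single libraries gave 0.88 to 1.22, the highest without the library that stood apart. With Cyss the difference was -0.10 (edgeR adjusted p = 0.569).

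NRG1 (chromosome 8, 31496738 to 32713184, plus strand), the neuregulin ligand of ERBB3 and ERBB4, moved less. In the GFP libraries it stood at 1944, 1960 and 2100 normalized counts with Cyss and at 2045, 2126 and 2241 without it, and in the NRF2 libraries at 2117, 2178 and 2092 with Cyss and at 2426, 2382 and 2565 without it. The NRF2 libraries without Cyss were again the 3 highest of the 12, but by a small margin. In NRF2 cells the log2FC of 0.21 (SE 0.0483) had an adjusted p of 0.00694 by edgeR and lay below the fold change threshold. The same held for NRF2 against GFP cells without Cyss, with a log2FC of 0.19 (SE 0.0528, edgeR adjusted p = 0.0261). Libraries that do not overlap and are higher were found for 19.3% of all genes in the first of these comparisons and 19.4% in the second. In GFP cells the log2FC was 0.09 (adjusted p = 0.323) and with Cyss between the cells also 0.09 (adjusted p = 0.268), and the libraries overlapped in both cases. Without the library that stood apart, NRG1 was at 0.06 in GFP cells and at 0.23 between the cells without Cyss (edgeR adjusted p = 0.0225). ERBB3, one of the receptors NRG1 binds, had between 0 and 16 reads in each library.

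ERRFI1 (chromosome 1, 8064464 to 8086369, minus strand), the inhibitor of the receptor's kinase, was the member with the largest log2FC on Cyss deprivation in both GFP and NRF2 cells. GFP libraries had 1585, 1462 and 1641 normalized counts with Cyss and 2195, 2415 and 3353 without it. NRF2 libraries had 1455, 1428 and 1459 with Cyss and 3779, 4331 and 4918 without it. Both groups without Cyss lay above both groups with it (libraries of 11.5% of all genes were higher without Cyss with no overlap in GFP cells). The NRF2 libraries without Cyss lay above all others, as 19.3% of all genes did over NRF2 cells with Cyss and 19.4% over GFP cells without it. Cyss deprivation raised ERRFI1 from 1563 ± 91.4 to 2654 ± 615 in GFP cells (SD, n = 3 each), with 0.76 as the log2FC (SE 0.116, edgeR adjusted p = 0.00216). It stayed upregulated without the library that stood apart, at 0.56 (adjusted p = 1.02e-04). In NRF2 cells it rose from 1448 ± 16.9 to 4343 ± 570, which is 3-fold, with a log2FC of 1.58 (SE 0.0753, edgeR adjusted p = 2.79e-09). Without Cyss the NRF2 cells exceeded the GFP cells by 0.70 (SE 0.13, edgeR adjusted p = 0.00375). Leaving out single libraries gave 0.58 to 0.90, the highest without the library that stood apart. With Cyss the NRF2 cells lay lower, by a log2FC of -0.11 with no overlap between the libraries. The edgeR adjusted p was 0.225, and 12.1% of all genes did not overlap in that direction.

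ERBB2 (chromosome 17, 37844167 to 37886679, plus strand), the partner receptor, did not pass the test in any comparison. Cyss deprivation left its mean at 1288 ± 26 against 1306 ± 34.1 normalized counts in GFP cells, and at 1226 ± 107 against 1342 ± 49.5 in the NRF2 libraries (SD, n = 3 each). The NRF2 libraries without Cyss held 1348, 1178 and 1150, so that 1 of the 3 lay among the values with Cyss (1287, 1354 and 1384). The log2FC in NRF2 cells was -0.13 (SE 0.0644, edgeR adjusted p = 0.161), and -0.21 without replicate 1 of the NRF2 cells without Cyss. ADAM17 (chromosome 2, 9628615 to 9696861, minus strand), the main sheddase of EGFR ligands, varied little: its 12 libraries ran from 1585 to 1776 normalized counts. Its log2FC lay between 0.02 and 0.05 in the 4 comparisons, with standard errors of 0.0424 to 0.0516 and adjusted p-values of 0.522 or more by edgeR. Without the library that stood apart, ERBB2 and ADAM17 were at -0.00268 and 0.0132 in GFP cells, and at -0.10 and 0.07 between the cells without Cyss. Exons of ERBB2, ERRFI1 and ADAM17 overlap those of genes on the other strand, and those of NRG1 overlap noncoding genes on its own strand, so that reads in the shared stretches cannot be assigned to one gene. HBEGF has no such overlap.

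**Figure D3:**
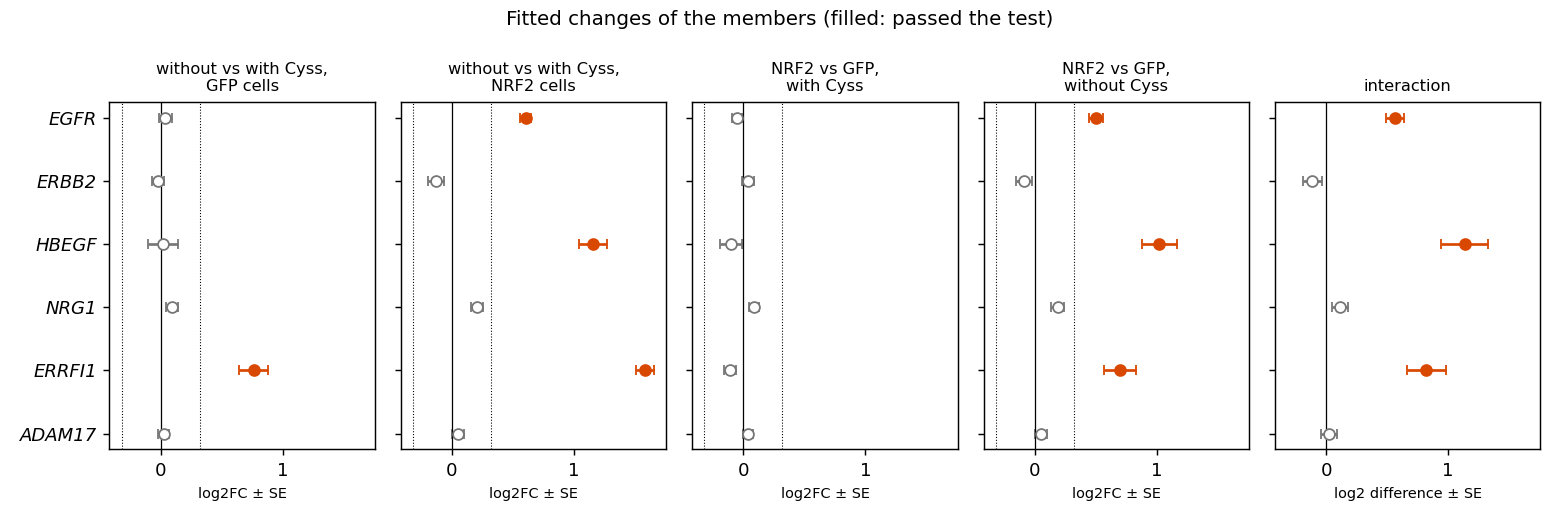
Fitted log2FC with its standard error (horizontal axis) of the 6 tested members in the 4 comparisons, and in the last panel the response of NRF2 cells to Cyss deprivation minus that of GFP cells. Filled points passed the test, and dotted lines mark a log2FC of 0.32 in either direction. EGFR (0.61) and HBEGF (1.16) pass in NRF2 cells and not in GFP cells, while ERRFI1 passes in both (1.58 and 0.76).

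Whether the response to Cyss deprivation differed between NRF2 and GFP cells was tested directly, as an interaction over all 12 libraries with an adjusted p under 0.1. Of the 6 members tested, 3 responded more in NRF2 cells and 0 less, against 8.97% and 6.13% of all genes. Here too the members had been chosen with earlier results of these data known. The response of HBEGF was larger in NRF2 cells by 1.14 on the log2 scale (SE 0.194, edgeR adjusted p = 0.00161). That of ERRFI1 was larger by 0.82 (SE 0.161, edgeR adjusted p = 0.00403) and that of EGFR by 0.57 (SE 0.0745, edgeR adjusted p = 6.39e-04). So the receptor, the one EGFR ligand among the members with enough reads and the inhibitor all had a larger response in NRF2 cells. The differences for NRG1 (0.11, SE 0.0673), ERBB2 (-0.11, SE 0.0796) and ADAM17 (0.02, SE 0.0638) did not pass, with adjusted p-values of 0.318, 0.412 and 0.854 by edgeR. For all 3 that passed, the difference was larger without the library that stood apart: 1.33 for HBEGF, 1.03 for ERRFI1 and 0.64 for EGFR. NRG1 (0.15), ERBB2 (-0.13) and ADAM17 (0.04) did not pass without it either.

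Across the 12 libraries, EGFR and HBEGF rose and fell together, with a Pearson's r of 0.937 for log2(normalized count + 1). Between EGFR and ERRFI1 r was 0.899, and between HBEGF and ERRFI1 0.872. NRG1, which was not called in any comparison, had similar values: 0.877 with EGFR, 0.891 with HBEGF and 0.859 with ERRFI1. ERBB2 ran the other way, with r of -0.665 against EGFR and -0.708 against ERRFI1. The 12 points come from 4 groups and share their libraries' scaling, so these values describe the data and carry no p-value. Among 13528 genes whose normalized counts averaged 50 or more, the pattern of EGFR was most like those of ABL2 (r = 0.993), CBLB (r = 0.99) and RASSF8 (r = 0.988). CBLB encodes a ubiquitin ligase that acts on activated receptors, and its mean was 3432 with and 3732 without Cyss in GFP cells, and 3354 with and 5757 without it in NRF2 cells, in normalized counts. ERRFI1 was most like FAM107B (r = 0.993), FAM167A (r = 0.991) and ADAMTS6 (r = 0.991), and HBEGF most like IER2 (r = 0.991), MSNP1 (r = 0.989) and GDNF (r = 0.988). IER2 is an immediate early gene, GDNF a secreted growth factor, and MSNP1 is named as a pseudogene of MSN, so its reads are uncertain.

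The remaining receptors and ligands of the family had few reads, the most being those of EGF, with 73 to 153 in each library. Of ERBB3, ERBB4, EGF, BTC, EPGN, NRG2, NRG3 and NRG4, only 3 of 8 could be tested in each comparison, and 4 between the cells without Cyss. EPGN encodes epigen, a ligand of EGFR. It had 6, 10 and 9 reads with Cyss and 3, 2 and 2 without it in GFP cells, and 24, 26 and 22 with Cyss and 14, 16 and 34 without it in NRF2 cells. Without Cyss the NRF2 libraries were higher with no overlap, although the counts were low. The same held for 19.4% of all genes tested. EPGN reached the mean of 10 that a gene needed to be tested only in the NRF2 groups. These had 26.95 and 21.67 normalized counts, against 6.871 and 2.499 in GFP cells. In both media it thus entered the comparison of NRF2 with GFP cells through the group where it is high. The fitted log2FC of NRF2 over GFP cells was 1.94 with Cyss (SE 0.28, edgeR adjusted p = 7.07e-04). Without Cyss it was 3.04 (SE 0.506, edgeR adjusted p = 0.00198), which rests on 2 or 3 reads in each GFP library, and 2.96 without the library that stood apart. With no filter on low counts the values were 1.93 and 3.04. The ratio of the summed and scaled reads there was 8.7, with an exact 95% interval of 3.99 to 22.5 that covers counting error only. DESeq2 gave EPGN no adjusted p in either. Within NRF2 cells EPGN was not called, but without replicate 3 of those without Cyss it was downregulated (-0.77, edgeR adjusted p = 0.0601). EGF itself fell in NRF2 cells on Cyss deprivation, from 142 ± 5.08 to 84.69 ± 6.17 normalized counts (SD, n = 3 each), with a log2FC of -0.75 (SE 0.119, edgeR adjusted p = 3.43e-04). With Cyss it was higher in NRF2 than in GFP cells, by 0.45 (edgeR adjusted p = 0.0316), a call that was lost without GFP replicate 3, NRF2 replicate 1 or NRF2 replicate 2 of the libraries with Cyss, and DESeq2's Wald test gave it no adjusted p. The fall of EGF on Cyss deprivation was larger in NRF2 cells by 0.49 on the log2 scale (an interaction of -0.49, edgeR adjusted p = 0.0651), which was kept in 4 of the 12 fits with a library left out and lost in DESeq2's Wald test (adjusted p = 0.133) and with no filter on low counts (adjusted p = 0.13).

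The list for shedding holds ADAM10 and ADAM12, the iRhom genes RHBDF1 and RHBDF2 that carry ADAM17 to the surface, FRMD8, which stabilises that complex, and TIMP3, an inhibitor of ADAM17. On Cyss deprivation, 0 of these 6 genes were called in GFP cells by edgeR or DESeq2 (1 had an unadjusted p under 0.05), and 2 rose in NRF2 cells, where 6.81% of all genes did. TIMP3 was very abundant and went from 40730 ± 784 to 58150 ± 2280 normalized counts in NRF2 cells (SD, n = 3 each), with a log2FC of 0.51 (edgeR adjusted p = 7.87e-07), and RHBDF2 rose by 0.34 (edgeR adjusted p = 0.0114). Only 1 of the pair was left without replicate 2 of the NRF2 cells with Cyss or replicate 3 of those without. Between the cells, 0 were called with Cyss by edgeR or DESeq2 (2 had an unadjusted p under 0.05) and 1 rose without it, TIMP3 by 0.34 (edgeR adjusted p = 0.00517). That call rests on single libraries: without Cyss, leaving out each in turn gave 0 to 2 of the 6, with 0 without replicate 1 or 2 of the GFP cells or replicate 3 of the NRF2 cells, and 2 without replicate 3 of the GFP cells or replicate 2 of the NRF2 cells. The median log2FC of the list in NRF2 cells was 0.10, against -0.01 for all genes.

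Adaptors and kinases carry the signal from the receptor into the cell. Of 23 genes from GRB2 and SHC1 through RAS, RAF, MEK and ERK to PI3-kinase, AKT, SRC and STAT3, 0 were called in 3 of the comparisons by edgeR or DESeq2. An unadjusted p under 0.05 was found for 4 of them in GFP cells, and between the cells for 7 with and 8 without Cyss. Downregulated genes numbered 2 between the cells without Cyss when replicate 3 of the GFP (GAB1 and PIK3R1) or replicate 1 of the NRF2 cells was left out, and 1 in GFP cells without their replicate 1 without Cyss. In NRF2 cells without against with Cyss, 2 fell, GAB1 by a log2FC of -0.59 (edgeR adjusted p = 0.00214) and PIK3R1 by -0.42 (edgeR adjusted p = 3.46e-04), against 5.14% of all genes downregulated. GAB1 encodes a docking protein of activated receptors and PIK3R1 a regulatory subunit of PI3-kinase. The median log2FC of the list in NRF2 cells was 0.02. In the interaction, where no fold threshold applied, 7 of the 23 responded more and 1 less in NRF2 cells, against 8.97% and 6.13% of all genes. The 7 became 4 without replicate 1 (with Cyss) or 2 (without) of the GFP cells, or replicate 3 (with) or 2 (without) of the NRF2 cells, and the 1 became 0 in several fits with a library left out. The largest were PIK3CA with 0.31 (edgeR adjusted p = 0.0259) and PIK3R1 with -0.30 (edgeR adjusted p = 0.0738), followed by BRAF with 0.29 (edgeR adjusted p = 0.0229).

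A further list of 10 genes covers receptor inhibitors and ubiquitin ligases. It holds LRIG1, LRIG2 and LRIG3, the ubiquitin ligases CBL, CBLB and RNF41, SOCS3, SOCS4 and SOCS5, and the phosphatase PTPN1. The list is broader than inhibitors of EGFR, so its counts are not counts of EGFR inhibitors. On Cyss deprivation, 4 rose and 1 fell in NRF2 cells, with a list median of 0.23, where 6.81% of all genes rose and 5.14% fell. SOCS3 had 686, 681 and 729 normalized counts with Cyss and 1181, 1317 and 1590 without, and its log2FC was 0.96 (SE 0.0885, edgeR adjusted p = 1.68e-06). CBLB rose by 0.78 (adjusted p = 1.06e-08) and RNF41 by 0.36 (edgeR adjusted p = 1.5e-04), and LRIG1 rose by 0.34 (edgeR adjusted p = 8.2e-05). LRIG3 went the other way, from 1244, 1247 and 1213 normalized counts to 937, 897 and 867, a log2FC of -0.46 (edgeR adjusted p = 2.59e-05). In GFP cells 1 of the 10 passed, RNF41 with 0.32 (edgeR adjusted p = 0.00224), a value at the threshold that was lost under DESeq2's size factors or Wald test, under library size only, with no filter, and without replicate 1 of the libraries with Cyss or replicate 2 or 3 of those without. Between the cells without Cyss, 3 rose, SOCS3 (0.77), CBLB (0.61) and LRIG1 (0.45), and LRIG3 fell (-0.44), against 5.98% and 4.09% of all genes. The 3 became 5 without replicate 3 of the NRF2 cells, and 4, with SOCS5 (0.35) added, without replicate 3 of the GFP cells. With Cyss 0 were called by edgeR or DESeq2, and 1 had an unadjusted p under 0.05. The response was larger in NRF2 cells for 6 of the 10 and smaller for 1, against 8.97% and 6.13% of all genes.

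Genes that ERK signalling is known to induce rose with the receptor in NRF2 cells. The list of 12 holds the phosphatases DUSP4, DUSP5 and DUSP6, the feedback inhibitors SPRY2, SPRY4, SPRED1 and SPRED2, the transcription factors ETV4 and ETV5, and PHLDA1, EPHA2 and EPHA4. The list was chosen with earlier results of these data known. In NRF2 cells 11 of the 12 were upregulated by Cyss deprivation, against 6.81% of all genes. The list median was 0.91, and the other gene, EPHA4, had a log2FC of -0.19. DUSP6, which dephosphorylates ERK, had 837, 811 and 793 normalized counts with Cyss and 3235, 4257 and 4956 without, a log2FC of 2.35 (SE 0.115, edgeR adjusted p = 3.02e-09). SPRY2 (1.71) and SPRY4 (1.66) followed. In GFP cells 1 of the 12 passed, ETV5 with a log2FC of 0.37 (edgeR adjusted p = 0.0045), where 1.57% of all genes were upregulated. The spread of the GFP libraries without Cyss was wide here: DUSP6 had 784, 1076 and 2297 normalized counts in replicates 1, 2 and 3, the last being the library that stood apart. Without it, 0 of the 12 were upregulated, ETV5 had a log2FC of 0.28 and 1 was downregulated, SPRED1 (-0.39, edgeR adjusted p = 0.0756), while 5 were upregulated without replicate 1 of the same group and 2 without replicate 1 of the GFP cells with Cyss. NRF2 cells without Cyss exceeded GFP cells without Cyss in 11 of the 12, against 5.98% of all genes. The list median was 0.83, led by DUSP6 (1.57), DUSP5 (1.41) and DUSP4 (1.36). The count was also 11 without the library that stood apart, and 9 without replicate 1 of the GFP cells without Cyss. With Cyss only DUSP4 was higher in NRF2 cells, by 0.39 (edgeR adjusted p = 0.00947), against 1.36% of all genes. That call was lost without NRF2 replicate 1. In the interaction 11 of the 12 responded more in NRF2 cells, with a median of 0.91, against 8.97% of all genes.

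**Figure D4:**
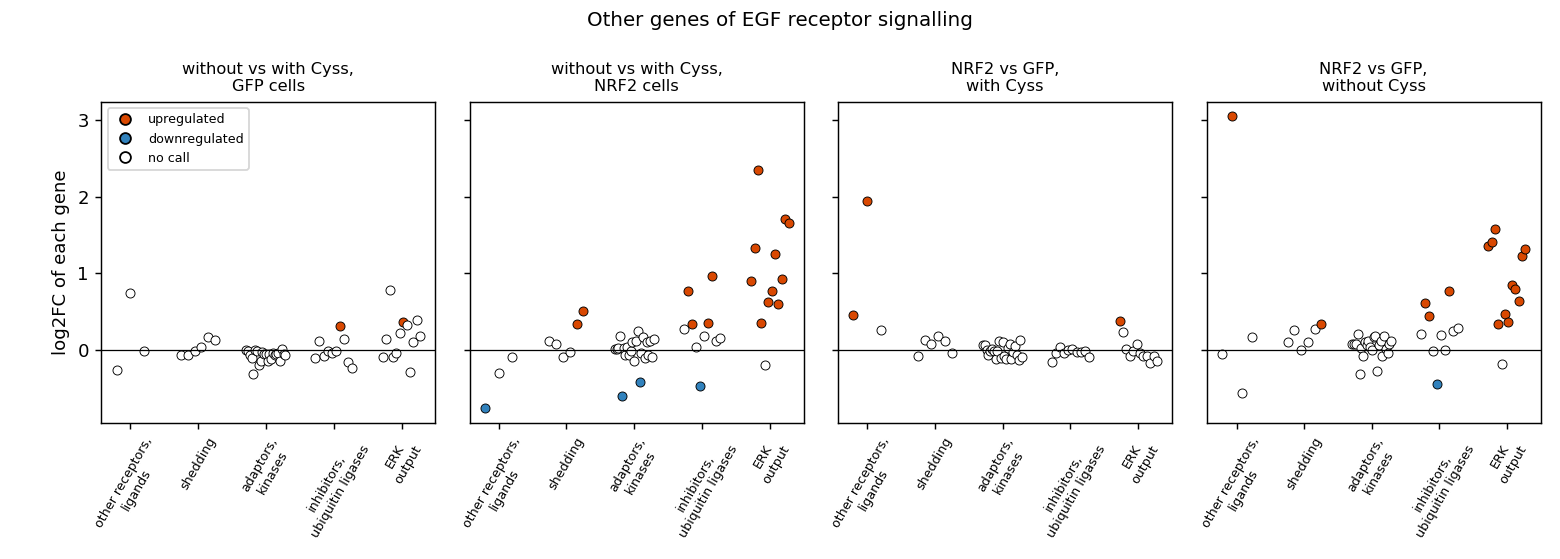
Fitted log2FC (vertical axis) of each tested gene of the 5 lists around the receptor in the 4 comparisons, with upregulated genes in orange, downregulated genes in blue and genes with no call in white. In NRF2 cells without Cyss, 11 of 12 genes of the ERK output list are upregulated against either reference. Of all genes, 6.81% are upregulated against NRF2 cells with Cyss and 5.98% against GFP cells without it. The lists were chosen with earlier results of these data known. Both comparisons use the same NRF2 libraries without Cyss and are not independent. Of the 23 adaptors and kinases, 2 are downregulated in NRF2 cells on Cyss deprivation and 0 are called in the other panels.

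Of the epithelial markers, KRT18, a keratin, was upregulated on Cyss deprivation in both cells, by a log2FC of 0.39 in GFP cells (edgeR adjusted p = 0.0173) and 0.66 in NRF2 cells (edgeR adjusted p = 4.64e-06). The value in GFP cells was 0.29, below the fold change threshold, without the library that stood apart. KRT18 was the 1 called of 4 epithelial markers tested in GFP cells and of 3 tested in NRF2 cells. Of all genes, 1.57% were upregulated in GFP cells and 6.81% in NRF2 cells. KRT8 (0.28) and CLDN4 (-0.05) did not pass in NRF2 cells. Between the cells, 0 were called with Cyss and 1 was lower in NRF2 cells without it, CDH1 (-1.27, edgeR adjusted p = 0.0638), where 4.09% of all genes were. CDH1 had only 6 to 12 reads in the GFP libraries without Cyss and 3 to 6 in the NRF2 libraries without Cyss. With means of 10.8 and 4.476 normalized counts, it was tested only through the group where it is high, so this call is uncertain. Of the 6 mesenchymal markers, ZEB1 rose (0.37, edgeR adjusted p = 1.26e-05) and TWIST1 fell (-0.38, edgeR adjusted p = 0.00167) on Cyss deprivation in NRF2 cells. Of all genes, 6.81% rose and 5.14% fell there. In GFP cells and between the cells 0 were called, apart from ZEB1 without Cyss (0.35) when the library that stood apart was left out. The 8 epithelial markers summed to 33.7 to 37.7 RPM with and 40.2 to 50.7 RPM without Cyss in the GFP libraries. In the NRF2 libraries they summed to 28.3 to 31.5 and 40.1 to 47.5 RPM. These sums are mostly KRT18, which in GFP cells averaged 986.9 normalized counts with and 1295 without Cyss. KRT8 had 166.3 and 182.7 there, and the next highest, CLDN4, had 14.37 and 17.88. The sums therefore do not show a rise of the markers as a set. The part of these markers in the results was not tested.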

How the data were processed

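RNA-seq counts of 12 libraries were used. Per the labels and the study's methods, the authors aligned single-end reads to the hg19 build by TopHat2 2.1.0 with Bowtie, checked them with FastQC, and counted reads on exons with HTSeq 0.11.2 without regard to strand. The annotation behind the symbols is not given in the sources used here. The deposited values are raw counts, from which 523 genes named as rRNA (0.304 to 0.366% of gene reads) and 5 counters of unassigned reads (15.9 to 17.1%) were removed. Each comparison used its 6 libraries, and the interaction all 12, with edgeR 4.0.16 (R 4.3.3). TMM factors were computed on the genes kept. Positions and lengths are those of GENCODE 44 on GRCh37. Members and gene lists were chosen with earlier results of these data known. All 9 members were described, and of each list up to 3 called genes with the largest change per comparison, besides others named for a count. Replicate pairs differed beyond sampling noise (chi-square per degree of freedom 2.11 to 11.7). Alternatives were DESeq2 1.42.0 (size factors and Wald test), library size only, other filters and thresholds, all 12 libraries, a replicate block, rRNA kept and each library left out. The procedure was also run on simulated counts with the same built-in spread for every gene. That is simpler than these data, so the run does not measure error rates here. Counts of list genes under these alternatives were added after the data were examined.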

Additional observations from a re-analysis of the deposited data

Results flagged for a closer look

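The responses of 3 genes differed between GFP and NRF2 cells under the same contrast, by the test of the interaction. The log2 response to Cyss deprivation was larger in NRF2 than in GFP cells by 0.57 for EGFR (adjusted p = 6.39e-04), by 1.14 for HBEGF (adjusted p = 0.00161) and by 0.82 for ERRFI1 (adjusted p = 0.00403), all from edgeR's quasi-likelihood test. For EGFR, HBEGF and ERRFI1 every NRF2 library without Cyss exceeded every other library. The same held for NRG1, whose interaction did not pass (edgeR adjusted p = 0.318). Libraries were higher with no overlap for 19.3% of all genes over NRF2 cells with Cyss, and for 19.4% over GFP cells without it. In all 12 fits that left out a library these 3 passed, with ranges of 0.53 to 0.64, 0.996 to 1.33 and 0.70 to 1.03. No outlier test of single libraries was run on a gene's values, since each group held 3 libraries.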

How the results depend on the processing

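The 4 comparisons and the interaction gave the same members up- or downregulated under each alternative, apart from the cases that follow. Without a fold change threshold NRG1 also passed in NRF2 cells (log2FC 0.21) and between the cells without Cyss (0.19). Leaving out single libraries moved the number of members with a smaller response in NRF2 cells from 0 to 1, which was ERBB2 (-0.19, adjusted p = 0.094) without replicate 1 of the NRF2 cells without Cyss. The sign turned only for values near 0. With scaling by library size only, ADAM17 was at -0.0108 in NRF2 cells and -0.028 in the interaction. Leaving out single libraries gave ranges of -0.168 to 0.108 for HBEGF, -0.0293 to 0.0828 for EGFR and -0.0014 to 0.0608 for ADAM17 in GFP cells, and -0.0175 to 0.0499 for ADAM17 in the interaction. The cause was not tested.

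Library size only also moved the split over all genes, from 1176 up and 887 down to 936 and 1397 in NRF2 cells, from 1034 and 708 to 876 and 1001 between the cells without Cyss, and from 1585 and 1084 to 1124 and 1981 in the interaction, while the median of all genes moved by -0.0588, -0.032 and -0.0522. Without the fold threshold the counts over all genes went to 543 up and 490 down for GFP cells, 2633 and 2379 for NRF2 cells, 724 and 398 between the cells with Cyss and 2425 and 2551 without. Between the cells with Cyss, DESeq2's Wald test gave 91 up and 14 down against 237 and 35, all 12 libraries in the fit 21 down, no filter 66 down and an adjusted p under 0.05 17 down. In GFP cells no filter gave 185 down against 93, without Cyss DESeq2 gave 422 down against 708, and in the interaction an adjusted p under 0.05 gave 528 down. Leaving out single libraries gave 913 to 2119 up and 482 to 1562 down in the interaction, 425 to 840 down between the cells without Cyss, 142 to 254 up and 15 to 56 down with it, and 55 to 133 down in GFP cells. The lowest counts in the interaction and between the cells without Cyss came without replicate 2 of the GFP cells without Cyss. The ERK list in GFP cells had 3 genes up with no filter and 2 with all 12 libraries in the fit, against 1, and between the cells with Cyss 0 with all 12 libraries.

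The replicate numbers are shared by the groups but only name the libraries: deviations of libraries with the same number correlated between -0.161 and 0.248. With the replicate number as a block no member's call changed, and the log2FC was 0.61 for EGFR, 1.15 for HBEGF and 1.58 for ERRFI1 in NRF2 cells. With 3 libraries per group an exact permutation test of one gene cannot go below p = 0.1, so the calls rest on the spread that edgeR shares across genes. AREG, EREG and TGFA, at 3 reads or fewer in each library, were not tested.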
